A study of Mus musculus with 7 samples.

Results

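The genes described here are ATF4, the transcription factor of the integrated stress response, 8 genes known as its partners or targets (Atf5, Ddit3, Trib3, Asns, Fgf21, Gdf15, Nupr1 and Sesn2), and Vldlr, the gene of the very-low-density lipoprotein receptor. They were chosen by symbol, with earlier results of these data known, as a list of 10. Of these, 9 have a row among the 21487 genes of the table and 8 passed the filter on low counts. RNA came from the gastrocnemius, a calf muscle, of mice with DJ-1 (gene Park7) knocked out in skeletal muscle only (4 libraries, knockout 1 to 4) and of floxed mice with the gene intact, which the labels also call WT (3 libraries, control 1 to 3). All animals of both groups had atrophy induced by immobilization, so no library shows the muscle before disuse. The labels and design text name no Cre driver, age or sex, and do not tie the libraries to separate animals, so the p-values measure only the spread between these samples.

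The integrated stress response starts when one of several kinases phosphorylates the translation factor eIF2alpha, which slows protein synthesis as a whole but lets the ATF4 mRNA be translated. ATF4 protein then switches on genes for amino acid supply, redox balance and, under lasting stress, cell death. In skeletal muscle the pathway is known from mitochondrial disease and from wasting, where muscle can secrete the hormones FGF21 and GDF15. The VLDL receptor takes up lipoproteins rich in triglyceride and also binds reelin, and ATF4 is known to raise its gene under ER stress in liver cells. Since ATF4 is controlled largely by translation, its mRNA does not show how much active protein a muscle holds.

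ATF4 binds DNA as a dimer at a composite element, searched here as the letters TGATGNAA on both strands of RefSeq promoter windows of 300 bases (250 before and 50 after a transcript start, GRCm38.p6). All 10 genes matched the promoter table, with 13 windows, and 5 of the 10 genes held the letters in a window, against 4.51% of all 27025 genes there. Because the genes were listed as known ATF4 genes, this share is a description of the list. The 5 stretches are shown so that the letters in Vldlr can be read beside those of established targets, and capitals mark the match as it reads along the gene's own strand.
Vldlr: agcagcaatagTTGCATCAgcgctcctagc
Nupr1: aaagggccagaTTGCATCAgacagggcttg
Fgf21: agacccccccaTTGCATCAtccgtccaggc
Asns: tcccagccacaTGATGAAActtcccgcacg
Trib3: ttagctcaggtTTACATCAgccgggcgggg
Vldlr, Nupr1 and Fgf21 carry the same letters, TTGCATCA, the element as read on the opposite strand. The Vldlr stretch lies on the plus strand at chr19:27216809-27216838, 200 bases before the downstream of its starts, inside an exon of a transcript annotated as a retained intron. The Nupr1 stretch is at chr7:126625562-126625591 (minus strand, match 110 bases before the start) and the Fgf21 stretch at chr7:45615611-45615640 (minus strand, 139 bases before). The Asns stretch is at chr6:7693214-7693243 (minus strand, 23 bases before) and the Trib3 stretch at chr2:152344028-152344057 (minus strand, 14 bases after). The windows of Atf4, Atf5, Ddit3, Gdf15 and Sesn2 do not hold these letters, which says nothing about sites elsewhere. A match is a string of letters and not evidence of binding. The core of the hypoxia element (ACGTG) stood in windows of 5 of the 10 genes and of 21.8% of all genes. That of the antioxidant element (TGACNNNGC) stood in windows of 2 of the 10 and of 14.0% of all genes.

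Vldlr was the clear change of the list, Atf4 stood at the threshold, and none of the other tested genes of the list was called. Vldlr RNA was 1.91 times as high in the knockout (95% interval 1.64 to 2.23) and Atf4 RNA 1.33 times. Ddit3, Nupr1, Asns and Atf5 had fitted changes below 0 and Trib3 had one near 0, none of them called. Of the 8 genes tested 2 were called at an adjusted p under 0.05 (25%), both higher, against 14.9% of all 13409 tested genes (6.67% higher, 8.23% lower). The list was chosen with earlier results of these data known, so its share of calls describes the list and tests nothing. Only Vldlr was called with a change over 1.5-fold, as were 7.52% of all tested genes, and DESeq2 called the same 2 of 8, against 17.6% of all. The groups did not overlap in 4 of the 8, higher for Vldlr, Atf4 and Sesn2 and lower for Nupr1, against 28.8% of all tested genes (14% higher, 14.8% lower). The median log2 fold change of the 8 was -0.16, and that of all tested genes was 0.0058.

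The libraries held 24458343 to 26389010 counts. Levels are given as CPM, counts scaled to 1000000 per library. Park7, the gene knocked out, stood at 245 ± 18.8 CPM in the 3 controls and at 37.3 ± 2.94 CPM in the 4 knockouts (mean ± SD). Fibre genes were abundant in every library: 8 fibre markers such as Acta1 and Ckm summed to 103428 to 129785 CPM in the controls and 135244 to 208509 CPM in the knockouts. These 8 did not move one way: 2 rose and 1 fell (37.5% called, against 14.9% of all tested genes). Their fitted changes were above 0 in 6 and below 0 in 2. In the mean Myh4 went from 46309 to 99854 CPM, called higher, and Mb from 3527 to 782 CPM, called lower. Actn3 was also called higher (log2 fold change 0.74, edgeR adjusted p = 0.0214). Acta1 went from 21636 to 18693 CPM with overlapping groups and was not called (edgeR adjusted p = 0.496). The 8 slow fibre markers summed to 1730 to 2028 CPM in the controls and to 675, 120, 70.7 and 673 CPM in knockout 1 to 4, and their part in the results below was not tested. In whole muscle, fewer cells of a type and less RNA per cell cannot be told apart.

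**Figure D1:**
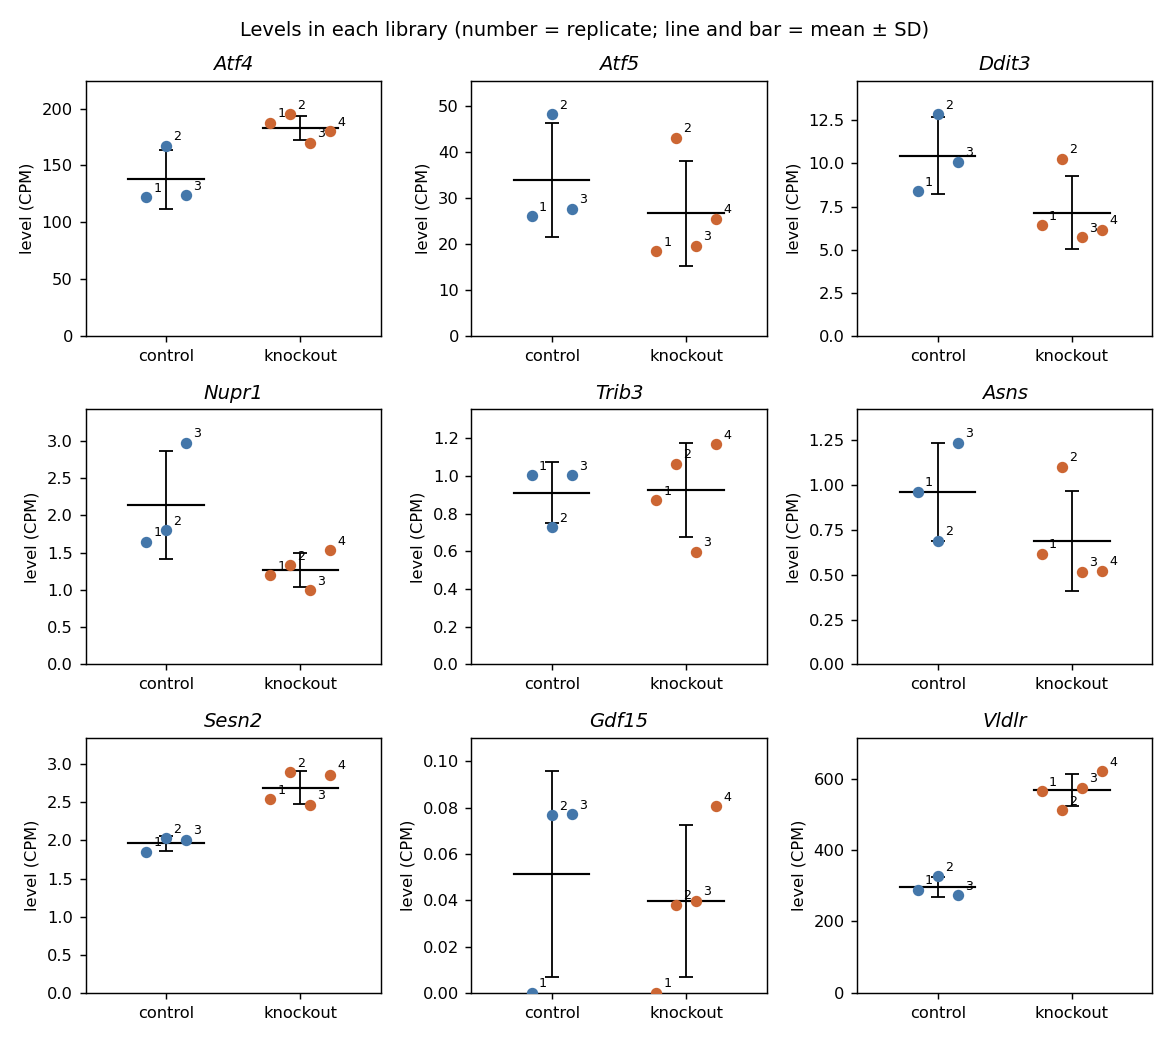
Level of each of the 9 genes with a row, in CPM on a linear axis from 0, in the 3 control and 4 knockout libraries (points, numbered by replicate), with the mean and SD. The Vldlr points are apart by the widest margin (274 to 327 CPM against 511 to 620 CPM), and the points of replicate 2 are the highest of both groups for Atf4, Atf5, Ddit3 and Sesn2.

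Vldlr (ENSMUSG00000024924, chr19:27216484-27254231, plus strand, GRCm38) read 289, 327 and 274 CPM in control 1 to 3 and 565, 511, 574 and 620 CPM in knockout 1 to 4. Every knockout was thus above every control, and the lowest knockout exceeded the highest control by more than the spread within either group. Its mean was 297 ± 27.1 CPM in the controls (n = 3) and 568 ± 45.1 CPM in the knockouts (n = 4), and the log2 fold change was 0.94 with an SE of 0.0974 (edgeR, Benjamini-Hochberg adjusted p = 0.00239). Ordered by p-value it was number 10 of the 895 genes that rose, and it was one of 296 that rose by more than 1.5-fold (2.21% of tested genes). The call held under each of the alternatives run, with log2 fold changes from 0.88 to 1.01 as single libraries were left out. The rule for similar patterns, the smallest root mean square difference of centred log2 CPM over the 7 libraries, gave Hook2 (0.078), Exosc3 (0.108) and Phf7 (0.115) among 10726 genes compared. Hook2, a linker of vesicles to microtubules, stood at 3.97 ± 0.198 CPM in the controls and at 8.34 ± 0.979 CPM in the knockouts.

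Among the relatives of Vldlr and the genes that work beside it, more fell than rose. Of 18 tested genes of this list (21 listed) 5 fell and 1 rose, against 8.23% lower and 6.67% higher over all tested genes, and the median log2 fold change was -0.12. Lpl, the lipoprotein lipase that frees fatty acids from the particles VLDLR binds, read 709, 890 and 559 CPM in the controls and 207, 201, 78.1 and 196 CPM in the knockouts. All knockouts were far below all controls, knockout 3 lowest, and the log2 fold change was -2.08 (SE 0.308, adjusted p = 0.00644). Cd36, the fatty acid transporter, had a log2 fold change of -0.90 (adjusted p = 0.00653). Reln, the gene of the ligand reelin, was low in all libraries (1.10 to 4.18 CPM) and was also called lower, at -1.10 (adjusted p = 0.0420).

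Among the receptors of the same family, Lrp4, which gathers acetylcholine receptors at the neuromuscular junction, was called lower: it read 13.3, 13.5 and 13.8 CPM in the controls and 6.39, 9.02, 9.36 and 7.86 CPM in the knockouts (log2 fold change -0.73, SE 0.136, adjusted p = 0.0116). Lrp6, a Wnt co-receptor, was at -0.40 (adjusted p = 0.0186) and was called only while all 3 controls were kept. Lrp8, the other reelin receptor, was nearly absent at 0 to 0.0402 CPM. The rise belonged to Ppard, a lipid-sensing nuclear receptor, at 0.51 (adjusted p = 0.0300), and no gene of the list rose once any 1 control, knockout 3 or knockout 4 was left out. Without control 1 or control 3, 3 genes of the list fell in place of 5. Over all genes 528 and 535 fell in these fits, in place of 1103.

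Some markers of other cell types were called lower in the knockouts and none was called higher, against 8.23% lower and 6.67% higher over all tested genes. The share that fell reached 66.7% for pericyte and smooth muscle, 60% for erythroid and 42.9% for fibro-adipogenic progenitor markers. It was 14.3% for endothelial and 0% for satellite cell markers. Each of these lists with a tested gene had a median log2 fold change below 0. The 7 endothelial markers, none of them at 0, summed to 218 to 265 CPM in the controls and 180 to 197 CPM in the knockouts, and 1 of 7 fell. The 6 adipocyte markers summed to 29.6 to 68.5 CPM and 13.8 to 32.0 CPM, and 1 of 5 tested fell. Vldlr is known in endothelium and Lpl in fat as well as in fibres. The endothelial sum was lower in every knockout than in any control, and the adipocyte sums overlapped. Among 6 pericyte and smooth muscle markers 4 fell (347 to 482 CPM in the controls, 319 to 389 CPM in the knockouts in sum), among 7 of fibro-adipogenic progenitors 3 fell (329 to 603 and 239 to 352 CPM), among 5 erythroid markers 3 fell (223 to 808 and 101 to 235 CPM) and among 8 of macrophages 2 fell (34.1 to 42.9 and 21.5 to 37.9 CPM). One each of 6 Schwann cell markers and 4 tested tenocyte markers fell, with list medians of -1.27 and -1.30. In both lists 1 control stood far above the others. The Schwann cell sum was 194, 45.4 and 57.6 CPM in control 1 to 3 and 28.3 to 43.5 CPM in the knockouts. The tenocyte sum was 46.3, 50.8 and 158 CPM in control 1 to 3 and 16.3 to 49.8 CPM in the knockouts. None of 6 satellite cell markers was called. The part of these cells in the values of Vldlr, Lpl and Cd36 was not tested.

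**Figure D2:**
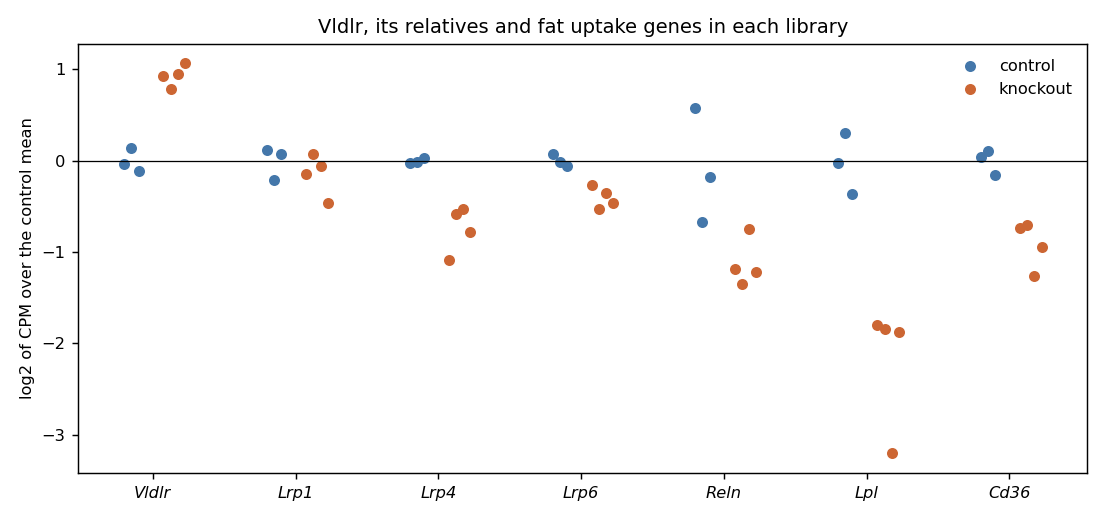
Log2 of each library's CPM over the control mean for Vldlr, 3 receptors of its family, the ligand gene Reln and the fat uptake genes Lpl and Cd36, with 3 control and 4 knockout points each. Vldlr lies above the line in all 4 knockouts, Lrp4, Lrp6, Reln, Lpl and Cd36 below it, and the Lrp1 knockouts fall on both sides.

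Atf4 (ENSMUSG00000042406, chr15:80255184-80257541, plus strand) read 122, 167 and 124 CPM in the controls and 187, 195, 170 and 180 CPM in the knockouts. The groups did not overlap, but control 2, at 167 CPM, came close to knockout 3. Its mean was 138 ± 25.7 CPM in the controls and 183 ± 10.7 CPM in the knockouts, and the log2 fold change was 0.41 with an SE of 0.119 (edgeR adjusted p = 0.0483). This call was marginal. It ended with the earlier quasi-likelihood method that is edgeR's default in the version used (adjusted p = 0.0511), with RLE (0.0505) or upper quartile scaling (0.0681) and without the filter (0.0588). DESeq2 gave 0.0188. With control 2 left out the adjusted p was 0.0168, and with any other single library left out it was 0.0749 to 0.171.

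Atf5, a relative of ATF4 that guards mitochondrial proteins and is translated under the same control, read 25.97, 48.2 and 27.7 CPM in the controls and 18.4, 43.1, 19.6 and 25.5 CPM in the knockouts. The groups overlapped, and 1 library of each group stood well above the others. The log2 fold change was -0.35 (95% interval -1.06 to 0.37, adjusted p = 0.483) and -0.0069 without control 2. Atf5 shares its 5′ end with Nup62 and Il4i1 on the other strand, and the strand of the counting is not given in the sources used here.

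Ddit3 encodes CHOP, the factor that links lasting ER stress to cell death. It read 8.40, 12.8 and 10.1 CPM in the controls and 6.42, 10.3, 5.74 and 6.17 CPM in the knockouts. Only knockout 2 lay within the range of the controls. The log2 fold change was -0.55 (SE 0.223, adjusted p = 0.131), which passed the threshold without knockout 2 (log2 fold change -0.77, adjusted p = 0.0201). Its last exon overlaps Mars on the other strand.

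Nupr1, a small chromatin protein induced by many stresses, read 1.65, 1.80 and 2.97 CPM in the controls and 1.197, 1.33, 0.996 and 1.53 CPM in the knockouts. All knockouts were below all controls, with control 3 far above the rest. The log2 fold change was -0.76 (SE 0.259, adjusted p = 0.0801) and -0.45 without control 3. Counts were few, 25 to 77 per library.

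Trib3, a pseudokinase that binds AKT and CHOP, and Asns, the asparagine synthetase, are standard readouts of ATF4 activity and were near the floor of detection. Trib3 held 15 to 29 counts and Asns 13 to 32 counts per library. Trib3 was at 0.913 ± 0.160 CPM in the controls and 0.926 ± 0.251 CPM in the knockouts (log2 fold change 0.02, 95% interval -0.61 to 0.65). Asns was at 0.964 ± 0.273 CPM and 0.691 ± 0.279 CPM (log2 fold change -0.47, 95% interval -1.24 to 0.30, adjusted p = 0.375). The groups overlapped for both genes. At these counts a rise of Trib3 by 1.5-fold was within the interval.

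Sesn2, a sestrin that restrains mTORC1 when leucine is scarce, read 1.85, 2.03 and 2.01 CPM in the controls and 2.54, 2.89, 2.47 and 2.86 CPM in the knockouts. The groups did not overlap and were tight (SD 0.0993 and 0.217 CPM). The log2 fold change was 0.45 (SE 0.153) with an adjusted p of 0.0776, which ranged from 0.0772 to 0.215 over the alternatives run. It rested on 46 to 76 counts per library.

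Of the secreted hormones of the pathway, Gdf15 was too low to compare at this depth. It had 0, 2 and 2 counts in the controls and 0, 1, 1 and 2 counts in the knockouts, a total of 4 counts in each group. It did not pass the filter, and a 2-sided exact permutation test of its CPM over the 35 splits gave p = 0.657. Fgf21 had no row and was not analysed here. Of the receptors through which they act, Fgfr1 rose by 0.68 (adjusted p = 0.0325), a call lost without any 1 control or knockout 3. Klb, the co-receptor that FGF21 needs, read 0.201 CPM or less in every library, and the GDF15 receptor gene Gfral was not analysed here. The 4 liver markers with a row, Alb among them, summed to at most 0.322 CPM.

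**Figure D3:**
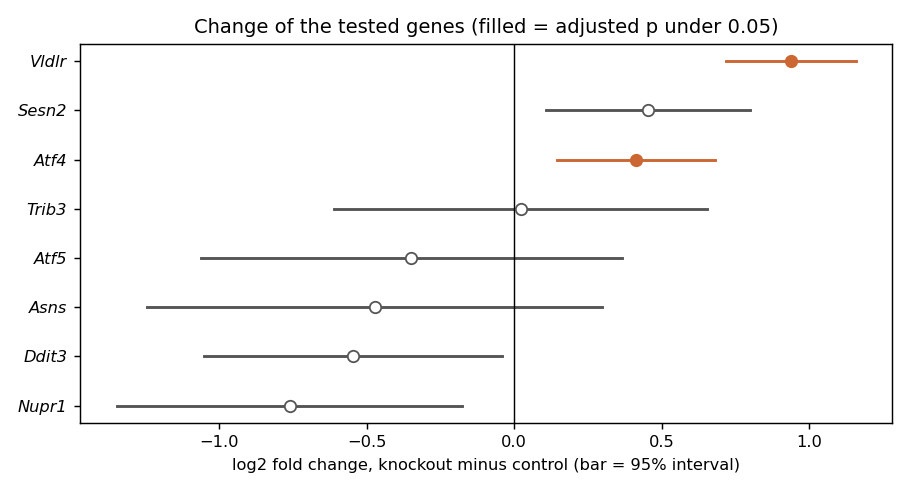
Log2 fold change of the 8 tested genes, knockout minus control, with its 95% interval (bar), filled where the adjusted p was under 0.05. The interval of Vldlr (0.72 to 1.16) does not reach that of any other gene but Sesn2, whose upper end is 0.80, while the points of Ddit3, Nupr1, Asns and Atf5 lie below 0.

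Per kilobase of merged exons (GENCODE M21), the control level of Atf4 was the highest of the list at 58.4 ± 10.9 CPM per kb, followed by Vldlr (29.5 ± 2.69), Atf5 (17.0 ± 6.20) and Ddit3 (6.10 ± 1.31). Nupr1, Sesn2, Trib3 and Asns followed at 0.852 ± 0.289, 0.565 ± 0.0286, 0.429 ± 0.0751 and 0.352 ± 0.0999 CPM per kb. Of these neighbours Trib3 and Asns differed by less than the SD of Asns and about that of Trib3, and Nupr1 and Sesn2 by about the SD of Nupr1. In the knockouts Atf4 stood at 77.7 ± 4.52 CPM per kb and Vldlr at 56.4 ± 4.48 CPM per kb. The merged length counts exons of rare transcripts, so a gene such as Vldlr (10.1 kb) may have its level understated.

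Certain libraries led their group across much of the list. Control 2 was the highest control for 5 of the 8 tested genes (Atf4, Atf5, Ddit3, Vldlr and Sesn2), and knockout 2 the highest knockout for 5 (Atf4, Atf5, Ddit3, Asns and Sesn2). Atf5 in control 2 was 1.74 times the next control, and in knockout 2 it was 1.69 times the next knockout. Vldlr differed: knockout 2 was its lowest knockout. Knockout 3 was the lowest knockout for 6 of the 8. Control 2 and knockout 2 bear the same replicate number, and the labels do not say that numbers mark a shared batch.

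Beyond the list, 164 genes of the wider pathway were tested, of which 18 rose and 11 fell (17.7% called, against 14.9% of all tested genes). Their median log2 fold change was 0.09. The medians of the amino acid transporter and tRNA synthetase lists were 0.30 and 0.32, and those of mitochondrial chaperones and of the relatives of Vldlr were -0.13 and -0.12.

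Upstream of ATF4, 14 genes of eIF2alpha signalling gave 1 rise and 1 fall (14.3% called, against 14.9% of all tested genes). The kinase genes Eif2ak1 (HRI), Eif2ak3 (PERK) and Eif2ak4 (GCN2) had log2 fold changes of 0.08, 0.13 and 0.24 and were not called. Ppp1r15a (GADD34), which recruits the phosphatase that ends the response and is itself an ATF4 target, read 25.9, 50.9 and 22.1 CPM in the controls and 94.1, 55.2, 54.3 and 66.7 CPM in the knockouts. All knockouts were higher, but control 2 came close. The log2 fold change was 1.04 (SE 0.301, adjusted p = 0.0493), and the call ended with RLE or upper quartile scaling or a mean count filter (0.0505, 0.0579 and 0.0505) and without control 1, control 3, knockout 1, knockout 3 or knockout 4 (0.0720 to 0.160). Oma1, the mitochondrial protease that passes organelle stress to HRI, was at -0.38 (adjusted p = 0.0216), no longer called without any 1 control or knockout 4. Its relay protein gene Dele1, listed under an older symbol, had a log2 fold change of -0.23 (adjusted p = 0.0666).

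Among 12 bZIP genes, whose proteins pair with ATF4 or act beside it, 1 was called (8.33%, against 14.9% of all tested genes). Cebpd, a C/EBP factor induced by glucocorticoids and cytokines, read 8.56, 12.2 and 6.02 CPM in the controls and 42.4, 19.7, 24.7 and 64.6 CPM in the knockouts (log2 fold change 2.08, SE 0.421, adjusted p = 0.0153). The call ended without control 1 or control 3, when the adjusted p reached 0.0602. Atf3, an early target of ATF4 that was picked out only on seeing its values, read 55.8 CPM in control 2 and 3.22 to 9.09 CPM in all 4 knockouts, with 6.995 and 6.14 CPM in the other controls.

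The enzymes of serine, proline and one-carbon supply did not move one way. Of 13 tested 1 rose and 1 fell (15.4% called, against 14.9% of all tested genes), with a median of -0.04. Psat1, the aminotransferase of serine synthesis, fell from 2.96 to 1.17 CPM in the mean (log2 fold change -1.32, adjusted p = 0.0150), a call lost without control 3 or control 2. Phgdh, the first enzyme of that route, went from 1.77 to 0.879 CPM in the mean and was not called (adjusted p = 0.107), Mthfd2 at -0.04 and Shmt2 at 0.02. Gpt2, the mitochondrial alanine aminotransferase, rose from 274 ± 13.2 to 527 ± 79.5 CPM (log2 fold change 0.95, SE 0.121, adjusted p = 0.00387) and kept its call under each alternative run. Chac1, which degrades glutathione, read 43.7, 99.4 and 55.0 CPM in the controls and 129, 62.5, 69.2 and 158 CPM in the knockouts and was not called (adjusted p = 0.258).

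The genes of cytosolic aminoacyl-tRNA synthetases, which load amino acids onto tRNA, lay higher in most cases. Of 13 tested 3 rose and 0 fell (23.1% called, against 14.9% of all tested genes), and 11 had a fitted change above 0. In 8 every knockout was above every control (higher without overlap in 14% of all tested genes). The median was 0.32. Vars rose by 0.80 (SE 0.147, adjusted p = 0.0111), Lars by 0.42 (adjusted p = 0.0101) and Tars by 0.39 (adjusted p = 0.0128, which became 0.0544 without control 1). DESeq2 called 6 of the 13, against 17.6% of all tested genes. Without control 1, 2 were called, against 6.12% of all genes tested in that fit. Wars, also induced by interferon, was at -0.43 and not called; control 1 read 72.3 CPM against 33.3 to 36.6 CPM in the other controls.

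**Figure D4:**
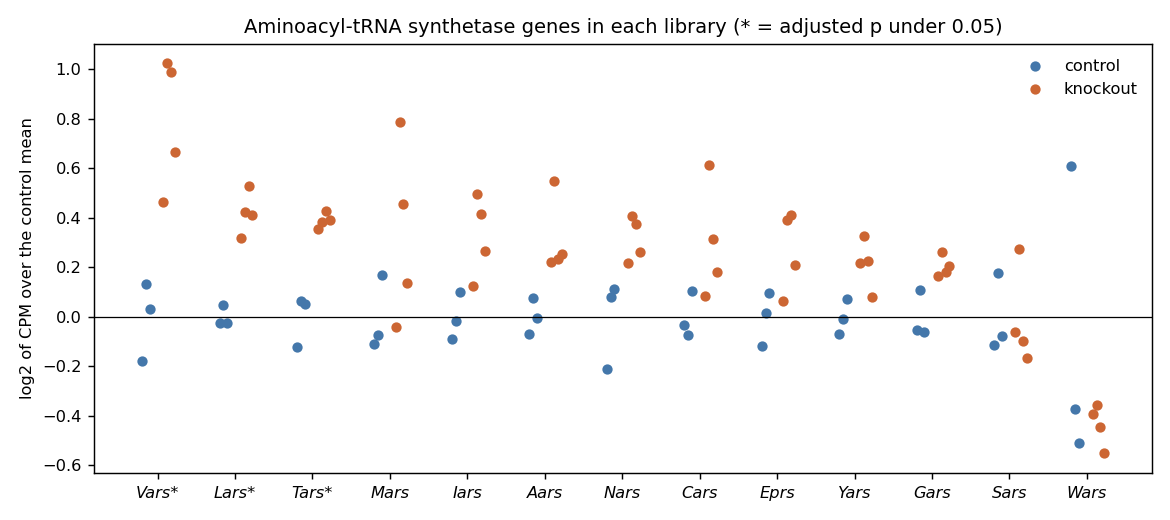
Log2 of each library's CPM over the control mean for 13 aminoacyl-tRNA synthetase genes, ordered by fitted change, with 3 control and 4 knockout points each and an asterisk where the adjusted p was under 0.05. Vars, Lars and Tars are marked, and for 8 of the 13 genes every knockout point lies above every control point.

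None of the 7 tested amino acid transporters was called by edgeR or by DESeq2, against 14.9% and 17.6% of all tested genes. Of the 7, 1 had an unadjusted p under 0.05. Slc3a2, the shared heavy chain of several transporters, had a log2 fold change of 0.30 (adjusted p = 0.0793, which became 0.0237 without knockout 1), and the cystine transporter gene Slc7a11 stayed at 0.121 CPM or less. ER chaperone and unfolded protein response genes gave 0 calls of 18 with edgeR and 1 with DESeq2, against the same 14.9% and 17.6%. Their median was 0.07, and 4 of the 18 had an unadjusted p under 0.05. Over all 13409 tested genes such values were common: Ddit3, at an unadjusted edgeR p of 0.0364, ranked only 3735 by p. Hspa5 (BiP), the main ER chaperone, had a log2 fold change of 0.16 (95% interval -0.15 to 0.47). Mitochondrial chaperones and proteases gave 4 falls and 0 rises of 12 (33.3% called, against 14.9% of all tested genes): Hspa9, Htra2, Spg7 and Dnaja3 fell by 0.40, 0.40, 0.30 and 0.29 on the log2 scale (adjusted p = 0.0495, 0.0433, 0.0437 and 0.0325). No gene of that list was called without the filter or when any 1 control, knockout 2, knockout 3 or knockout 4 was left out, and 2 were without knockout 1. Over all genes these fits called from 5.83% (without control 3) to 15.5% (without knockout 2).

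Some further targets of ATF4 and CHOP rose. Of 17 tested 4 rose and 0 fell (23.5% called, against 14.9% of all tested genes), with a median of 0.09: Ddit4 (REDD1), a brake on mTORC1, Eif4ebp1, a repressor of translation, the cell cycle inhibitor Cdkn1a and Ppp1r3c, which brings a phosphatase to glycogen. Ddit4 read 9.77, 7.44 and 6.45 CPM in the controls and 49.96, 12.2, 27.3 and 31.8 CPM in the knockouts. All knockouts were higher, knockout 2 least. Eif4ebp1 read 18.4, 29.1 and 22.7 CPM in the controls and 34.0, 60.5, 52.9 and 53.7 CPM in the knockouts. Ppp1r3c was uneven, at 547, 345 and 184 CPM in the controls and 797, 1278, 922 and 613 CPM in the knockouts. The log2 fold changes of Ddit4, Eif4ebp1, Cdkn1a and Ppp1r3c were 1.94, 1.10, 1.01 and 1.33 (edgeR adjusted p = 0.0167, 0.0128, 0.0111 and 0.0385). Ppp1r3c was not called without control 2, control 3, knockout 1, knockout 2 or knockout 3. Without control 3, 1 gene of this list was called and without control 2, 2 were, against 5.83% and 7.64% of all genes tested in those fits. Of 15 targets of p53, a factor that also induces Gdf15 and Sesn2, 1 rose, Cdkn1a, and 0 fell (6.67% called, against 14.9% of all tested genes).

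Around Sesn2, 18 genes of amino acid sensing by mTORC1 gave 4 rises and 0 falls (22.2% called, against 14.9% of all tested genes), with a median of 0.11. Depdc5 and Nprl3, subunits of the GATOR1 brake, rose by 0.49 and 0.43 (adjusted p = 0.0144 and 0.0295), Sar1b, a leucine sensor, by 0.34 (0.0463) and the GTPase gene Rragc by 0.27 (0.0405). The count was 0 without control 1, 1 without control 2, control 3, knockout 3 or knockout 4, and 2 with upper quartile scaling or no filter. Over all genes these fits called from 5.83% (without control 3) to 14.5% (upper quartile scaling). Sesn1 and Sesn3 were not called (log2 fold changes 0.37 and -0.18). Of 6 genes of the tribbles and AKT list 2 were called (33.3%, against 14.9% of all tested genes). Akt1 rose by 0.63 and Akt2 by 0.36 (adjusted p = 0.0198 and 0.0139). Neither was called without control 1 or control 3, and Akt1 was not called without control 2. Trib1 and Trib2, the relatives of Trib3, were at -0.41 and -0.36 and were not called.

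**Figure D5:**
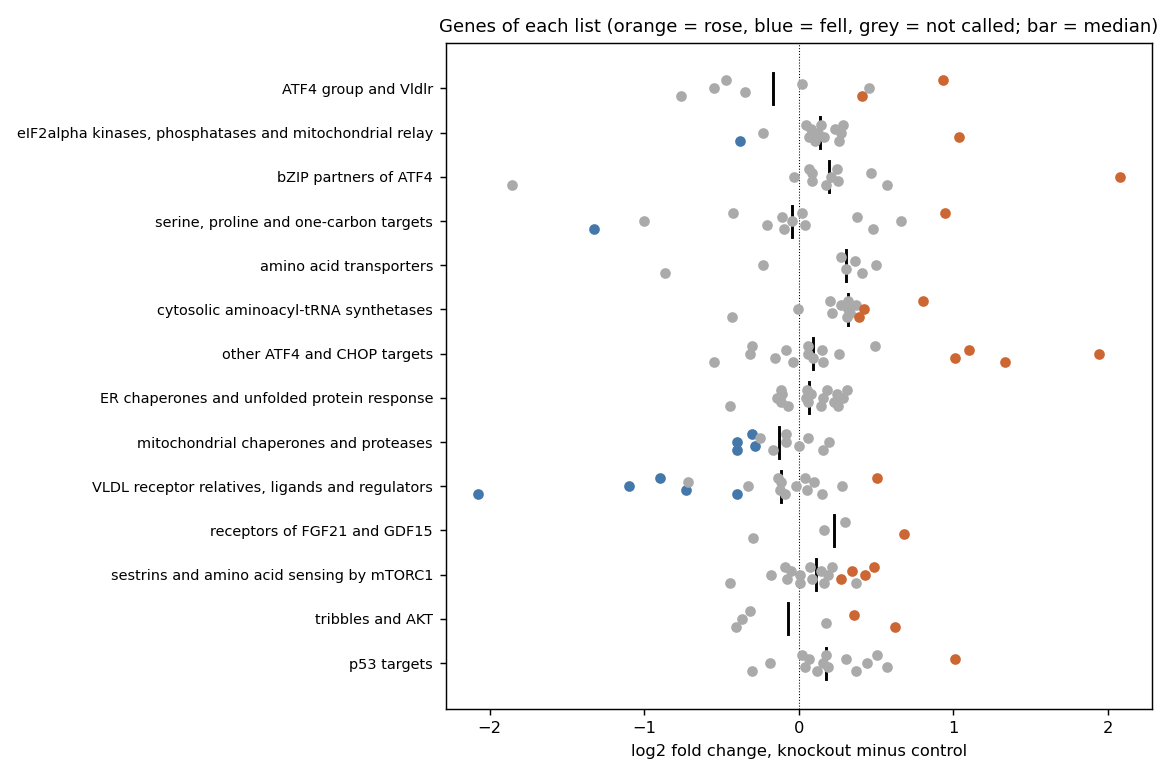
Log2 fold change of each tested gene, knockout minus control, by list, with genes that rose in orange, genes that fell in blue, uncalled genes in grey and the list median as a bar. The list medians lie between -0.16 and 0.32, and no list has all of its genes called.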

How the data were processed

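RNA was sequenced in 7 libraries, per the labels as paired reads of 150 bp. Per the submitters' processing notes, the authors aligned reads to mm10 with STAR 2.7.10a, quantified with RSEM 1.2.28 and tested with DESeq2 (given as 1.3.40). The deposited table holds RSEM expected counts by gene symbol, 7.59% of them not whole, and they were rounded here. No source used here states the annotation or strand setting. Symbols that had become dates (24) were tested but not named.

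Testing used edgeR 4.0.16 in R 4.3.3 (filterByExpr, TMM, quasi-likelihood F test) with Benjamini-Hochberg adjustment over all tested genes. The newer quasi-likelihood method (legacy off) was taken as main after both had been seen, because it gives the same 1998 calls as an earlier analysis of the whole series. The package default gave 1944 and did not call Atf4. CPM are on TMM-scaled library sizes. The SE was derived from the fold change and its F statistic. On simulated data the test recovered 43.3% of 1.5-fold, 86.6% of 2-fold and 97.0% of 4-fold changes, and 5.03% of its calls were false. A change near 1.5-fold could thus often go uncalled.

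The members, gene lists and tests were chosen with earlier results of these data known. Genes named are the 10 members, Park7, up to 4 called genes per list by p (2 where none was called) and the 3 genes most like Vldlr in pattern. Others (Myh4, Actn3, Acta1, Mb, Lrp1, Lrp8, Ppard, Reln, Atf3, Dele1, the kinases, Phgdh, Mthfd2, Shmt2, Chac1, Wars, Slc7a11, Hspa5, Klb, Sesn1, Sesn3, Trib1, Trib2) were named after their values were seen. Of the list genes, 4 were found through RefSeq synonyms. Positions come from GENCODE M21 (GRCm38). Alternatives were RLE and upper quartile scaling, an unfiltered table, a minimum mean count of 10, DESeq2 1.42.0, unrounded counts, the replicate number as a term, leaving out each library and, added after seeing the data, the default method. One listed gene is not reported here by name.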

Additional observations from a re-analysis of the deposited data

Results flagged for a closer look

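Within the 4 knockouts, the most extreme library was checked against the others by the ratio of its gap to the whole range, for 44 genes, and 4 passed the 95% critical value. Chance gives about 1 such flag in 20. Ddit3 in knockout 2 read 10.3 CPM against 5.74 to 6.42 CPM in the other knockouts. Asns in knockout 2 read 1.10 CPM against 0.518 to 0.617 CPM. Slc3a2 in knockout 1 read 21.4 CPM against 26.5 to 27.4 CPM. Lpl in knockout 3 read 78.1 CPM against 196 to 207 CPM.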

How the results depend on the processing

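The rise of Vldlr kept its direction and its call under all 15 alternatives. The number of the 8 genes called was 2, and 1 with RLE scaling, upper quartile scaling, no filter or the default quasi-likelihood method, where Atf4 dropped out; it was 1 to 2 as single libraries were left out, and without knockout 2 the 2 were Vldlr and Ddit3. Over all tested genes 1998 were called, and 793 (without control 3) to 2057 (without knockout 2) as single libraries were left out. Over the wider pathway 29 were called, and 9 (without control 3) to 26 (without knockout 2) likewise. Fits without a library have fewer samples. With the replicate block 1273 genes and 18 pathway genes were called, and Vldlr and Atf4 stayed called (adjusted p = 0.0128 and 0.0468). Hspa9, Htra2, Spg7, Dnaja3, Nprl3, Rragc, Sar1b, Oma1, Psat1, Lrp6 and Ppp1r15a were not called with it. Deviations of same-numbered libraries correlated at 0.094, 0.134 and 0.085, not over 0.1 in every pair, and the labels do not say that numbers pair samples; each control correlated best with the knockout of its own number, a hint from the data and not the design. The log2 fold change of Trib3 changed sign, to -0.027 with upper quartile scaling, -0.11 with the replicate block and -0.12 to 0.18 as single libraries were left out (-0.12 without control 2, -0.05 without knockout 2, -0.10 without knockout 4), never called. Of all calls 44.8% were higher, against 33.2% with upper quartile scaling. Depth limits Gdf15, Trib3, Asns, Nupr1 and Sesn2, with at most 77 counts in any library.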
